A study of Mus musculus with 6 samples.

Results

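The 9 genes described here encode transcription factors and were grouped under the mesenchyme that wraps the embryonic ureter, although not all are best known from it. They are the forkhead genes Foxf1 and Foxf2, the T-box genes Tbx2, Tbx3, Tbx4, Tbx5 and Tbx18, and the teashirt genes Tshz2 and Tshz3, which encode zinc finger proteins. Every probe set whose only gene symbol in the array annotation was one of these names was taken, which gave 20 probe sets of 45037 on the array and 9 genes of 18193. The set was proposed after results of these arrays had been seen, and it was selected on measured values in that Foxf1, Foxf2 and Tbx3 were known to vary between replicates. The members' spread and group differences are therefore a description of these 6 samples. RNA came from whole kidneys of C57BL/6 mouse embryos at embryonic day 12.5, in a Ret-deficient and a wild-type group of 3 biological replicates each, with 1 Affymetrix mouse whole-genome array per replicate. Ret encodes the receptor for GDNF on the ureteric bud, the epithelial tube that invades the kidney mesenchyme and branches. Which Ret allele was used, whether its loss was limited to a cell type, and how many litters or embryos made up a sample are not stated, and the source field names the pregnant female as the knockout where the titles name the kidney.

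As background from mouse genetics, the epithelium of the ureter secretes Sonic hedgehog, which acts on the mesenchyme around it. Foxf1 works downstream of this signal and is needed for Bmp4 in that mesenchyme, and Tbx2 and Tbx3 are repressors that also act there. Tbx18 gives the ureteric mesenchyme its identity, and Tshz3 is needed for its smooth muscle to differentiate. Tbx4 and Tbx5 are best known from the hindlimb and from the forelimb and heart.

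The promoters of 5 of the 9 genes (Foxf2, Tbx4, Tbx18, Tshz2 and Tshz3) were in the RefSeq promoter table (GRCm38.p6, 250 bases before to 50 after the annotated start). Those of Foxf2 and Tshz3 are shown because, among these 5 genes, Foxf2 had the widest and Tshz3 the narrowest spread over the Ret-deficient replicates. The Foxf2 sequence lies at chr13:31625566-31625865 and that of Tshz3 at chr7:36697868-36698167, both on the plus strand, and capitals mark matches to the GC box GGGCGG on either strand.
Foxf2: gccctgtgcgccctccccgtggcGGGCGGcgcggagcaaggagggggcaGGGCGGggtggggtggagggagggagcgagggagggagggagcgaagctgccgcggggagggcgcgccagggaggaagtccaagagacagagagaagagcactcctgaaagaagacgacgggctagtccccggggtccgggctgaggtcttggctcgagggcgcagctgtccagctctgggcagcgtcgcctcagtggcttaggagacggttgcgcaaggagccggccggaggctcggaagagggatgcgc
Tshz3: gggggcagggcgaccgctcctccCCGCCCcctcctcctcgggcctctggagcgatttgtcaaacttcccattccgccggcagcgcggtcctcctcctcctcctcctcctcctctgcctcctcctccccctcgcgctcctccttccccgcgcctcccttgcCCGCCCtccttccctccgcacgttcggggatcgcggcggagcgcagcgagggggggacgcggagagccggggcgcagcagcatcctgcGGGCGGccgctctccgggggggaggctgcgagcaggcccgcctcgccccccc
Both windows were rich in G and C, at 71.3% for Foxf2 and 76% for Tshz3 against a median of 52.7% over 32851 promoters. Foxf2 held 2 matches to the GC box and Tshz3 held 3, and 35.7% of all promoters held at least 1. The GLI core GACCACCCA, searched on both strands because GLI proteins carry the hedgehog signal, was in neither window nor in the other 3, and 0.253% of all promoters held it. The forkhead core TGTTTAC and the T-box core TCACACC, present in 3.65% and 3.98% of all promoters, were also in none of the 5 windows. No match to one of these motifs overlapped a match to another in the printed windows.

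Several samples stood apart in genes other than the members. In Ret-deficient replicate 1 the summed signal of 14 ureteric epithelium markers was 8120, with Cdh1 and Calb1 among 5 markers not above background, where replicates 2 and 3 of that group had 72483 and 56689 and wild-type kidneys had 83952 to 92793. In Ret-deficient replicate 3 the sum of 7 macrophage markers was 68861, against 36322 and 25072 in the other Ret-deficient kidneys and 19691 to 31057 in wild-type kidneys. Wild-type replicate 1 had a Gapdh 3 prime to 5 prime signal ratio of 4.91 where the other 5 arrays had 1.86 to 2.31. Markers of the kidney itself were present in all samples, with Six2, of the nephron progenitors, at 1186.5 to 1517.1 in Ret-deficient and 990.9 to 1830 in wild-type kidneys. Ret itself read 93.3, 479.8 and 334.1 in the Ret-deficient replicates, against 10193 to 13315 in wild-type kidneys, with no overlap (log2 difference -5.43, SE 0.53, limma adjusted p = 0.5096). Values are MAS5 signals with the same trimmed mean, 2500, on every array, so a value is a share of the RNA hybridized, and fewer cells of a type and less RNA per cell cannot be told apart. The brightest of 27 bacterial control probe sets, used as the mark of background, read 97.2 to 186.9 over the 6 arrays.

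Of the 20 member probe sets, 12 of 7 genes were bright enough to be tested, and Tbx4 and Tbx5 had none that were. In the limma fit over 22519 probe sets no member passed an adjusted p of 0.05 (0% of all tested probe sets did), with adjusted p between 0.9374 and 0.9987 for the 12. None had an unadjusted p under 0.05, which 5.37% of all tested probe sets had. Without Ret-deficient replicate 2 that count of members became 2, both of Tbx3, where 4.84% of all tested probe sets had such a p. Without Ret-deficient replicate 3 it was also 2, those of Foxf1 and Foxf2, where 9.5% of all tested probe sets had such a p. The Ret-deficient and wild-type values overlapped at each of the 12, while the groups did not overlap at 10.7% of all tested probe sets. The log2 difference, Ret-deficient minus wild-type, was negative for 8 of the 12, and for 51.7% of all.

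Several members spread widely over the Ret-deficient kidneys. The 3 Ret-deficient values spanned over 1 log2 unit at 7 of the 12 probe sets, and at 19.2% of all tested probe sets. In wild-type kidneys the span was over 1 log2 unit at 2 of the 12 and at 13.7% of all. Because the members were chosen partly for this spread, nothing is read from the counts.

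**Figure D1:**
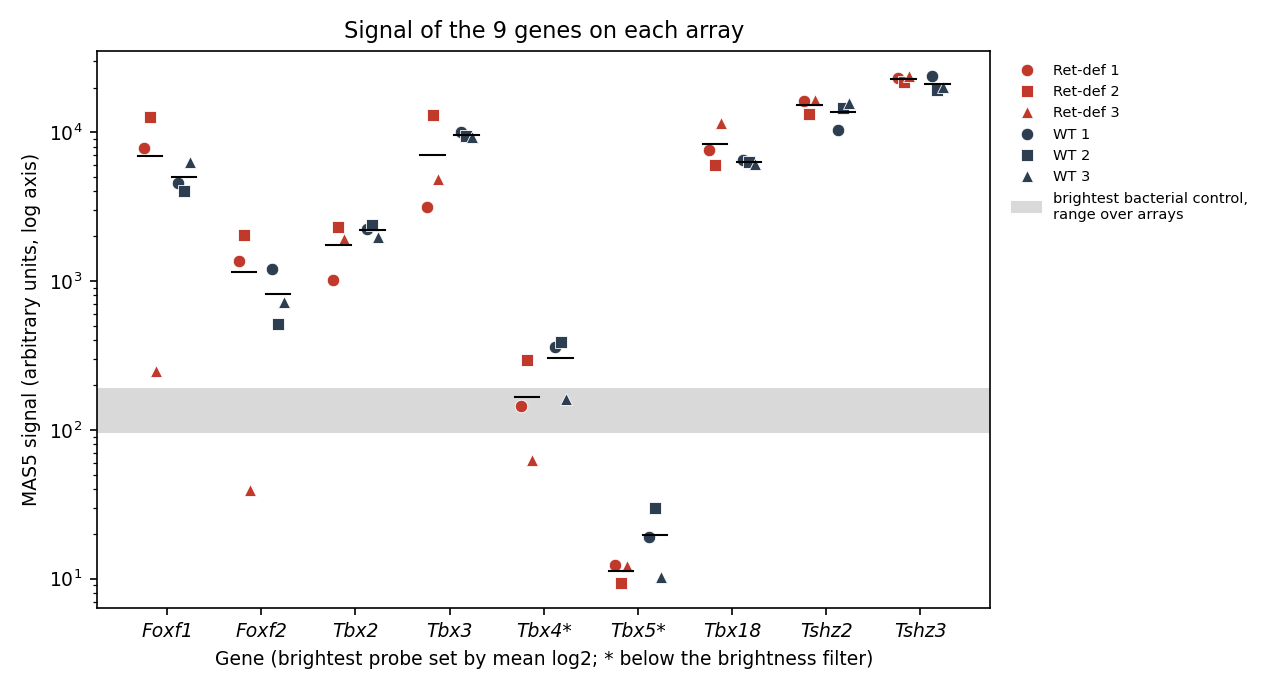
MAS5 signal on a log axis for the brightest probe set of each of the 9 genes, with 1 point per array, Ret-deficient arrays in red to the left of wild-type arrays in dark blue, bars at the arithmetic group means, and a grey band over the range of the brightest bacterial control (97.2 to 186.9). Foxf1 and Foxf2 have a single low point, Ret-deficient replicate 3 (249.5 and 39.1), Tbx3 has its lowest in Ret-deficient replicate 1 (3124.8), and Tbx5 lies below the band on every array.

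Foxf1 and Foxf2, the related forkhead genes, were both far lower in Ret-deficient replicate 3 than in any other sample and higher in Ret-deficient replicates 1 and 2 than in any wild-type sample. Foxf1 (probe set 1434939_at) read 7867, 12733 and 249.5 in Ret-deficient replicates 1, 2 and 3, against 4532, 4058 and 6356 in the wild-type replicates. The highest Ret-deficient value was 51.0 times the lowest, and the highest wild-type value 1.57 times the lowest. Thus replicates 1 and 2 lay above all wild-type kidneys and replicate 3 below them.

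Foxf2 (1418220_at) read 1362, 2041 and 39.1 in the Ret-deficient replicates, against 1205, 515.3 and 720.6 in the wild-type replicates. It showed the same order over the Ret-deficient samples as Foxf1, and its value of 39.1 was not above the background mark of 133.4 on that array. Against the wild-type mean on the log2(signal + 16) scale, the 3 Ret-deficient values of Foxf1 were 0.68, 1.38 and -4.21. Those of Foxf2 were 0.82, 1.40 and -3.83, the last from a reading at background.

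The group means hide this pattern. Foxf1 averaged 6949.9 ± 6292 in Ret-deficient and 4982 ± 1213 in wild-type kidneys (signal, mean ± SD, n = 3 each), yet the mean log2 difference was -0.72 (SE 1.36), because replicate 3 weighs more on the log scale. Foxf2 averaged 1147 ± 1018 in Ret-deficient and 813.7 ± 354.2 in wild-type kidneys, with a log2 difference of -0.54 (SE 1.30). Ret-deficient replicate 3 decides the sign of both: without it the difference was 1.03 for Foxf1 and 1.11 for Foxf2 (limma adjusted p = 0.4501 and 0.4934). In that replicate 2 of the 12 member probe sets, those of Foxf1 and Foxf2, lay at least 2-fold below the lowest wild-type array, against 0.795% of all tested probe sets. Only 3 of the 22519, or 0.0133%, lay 4 log2 units or more below the wild-type mean there, and these were probe sets of Ret, Lin28a and Foxf1. Conversely 1 of the 12, that of Foxf1, lay 2-fold above the highest wild-type array in Ret-deficient replicate 2, against 0.662% of all.

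The dimmer probe sets of the forkhead pair add little. For Foxf1, 1423013_at read 175.7, 171.8 and 23.4 in Ret-deficient replicates 1, 2 and 3, against 17.0, 198.3 and 213.9 in the wild-type replicates. It was thus also low in Ret-deficient replicate 3, but equally so in wild-type replicate 1. For Foxf2, 1447562_at was above background on 0 of 3 Ret-deficient arrays and 1 of 3 wild-type arrays.

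**Figure D2:**
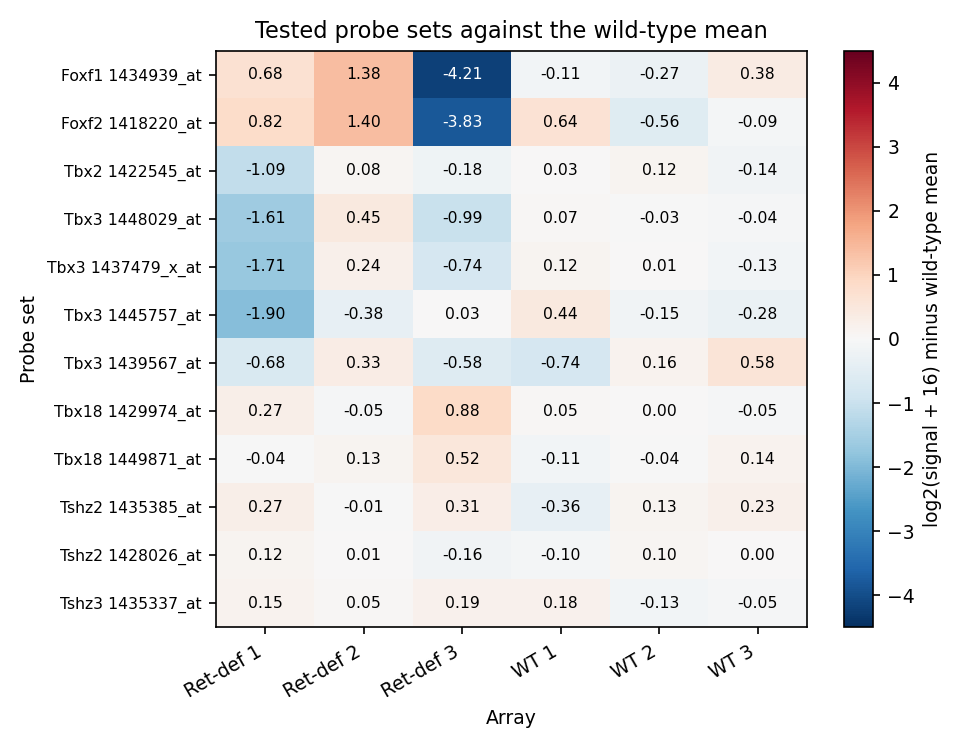
Each of the 12 tested member probe sets (rows) on each array (columns, Ret-deficient left of wild-type), coloured and labelled by log2(signal + 16) minus its wild-type mean. The Foxf rows are lowest in Ret-deficient replicate 3 (-4.21 and -3.83), the Tbx2 row and 3 of the 4 Tbx3 rows are lowest in Ret-deficient replicate 1, and the Tbx18 and Tshz rows stay within 0.88 of the mean.

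Among 11580 other genes, each taken by its nearest tested probe set, those with centred log2 profiles nearest to Foxf1 over the 6 arrays were, in order, Foxf2, Slc14a1, Dapl1 and Isl1, at root mean square differences of 0.40 to 0.58 log2 units. For Foxf2 the nearest were Slc14a1, Foxf1, Isl1 and Dapl1, at 0.22 to 0.67. Slc14a1, a urea transporter gene, read 784.3, 720.6 and 11.8 in Ret-deficient replicates 1, 2 and 3, against 541.2, 208.0 and 323.0 in the wild-type replicates. Isl1 encodes a LIM homeodomain factor of, among other tissues, the mesenchyme near the cloaca. Its probe set 1422720_at read 6763, 9514 and 634.8 in the Ret-deficient replicates, against 7746, 5268 and 6939.5 in the wild-type replicates. In Ret-deficient replicate 3 it was at -3.34 against its wild-type mean, where the brighter Isl1 probe set, 1450723_at, was at -2.25. All of these genes had their lowest value in the same kidney. The measure weighs such a low point heavily.

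The 2 tested bladder and cloaca markers were, like the Foxf genes, highest in Ret-deficient replicate 2 and lowest in replicate 3, but not high in replicate 1. One of them, Isl1, was also among the genes picked by likeness to the Foxf genes. Of the 6 genes on this list 2 were bright enough to be tested, Isl1 and the posterior homeobox gene Hoxd13. Their summed signal was 29500, 46451 and 7571 in Ret-deficient replicates 1, 2 and 3, against 33559 to 40983 in wild-type kidneys, so replicate 1 was below the wild-type range where Foxf1 and Foxf2 were above it. Hoxd13 read 11344, 18481 and 2707 in the Ret-deficient replicates, against 11705 to 15737 in wild-type kidneys. The uroplakin genes Upk1b, Upk2 and Upk3a of the bladder lining and Hoxa13 were below the brightness filter. Hoxa13 read 63.4, 231.1 and 123.2 in Ret-deficient replicates 1, 2 and 3, so its lowest value was in replicate 1. Only the value in replicate 2 was above background. The part of such cells in the Foxf values was not tested, nor was that of macrophages, whose markers were highest in the same kidney. No gut mesenchyme marker of 5 was bright enough to be tested.

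Some genes chosen after their values were seen were also low in that kidney. Lin28a, an RNA-binding protein gene of early developmental stages, read 2674, 2363 and 349.8 in Ret-deficient replicates 1, 2 and 3, against 5168 to 10947 in wild-type kidneys (1437752_at). The zinc finger gene Sall4 read 18888, 27196 and 2288 in the Ret-deficient replicates, against 22608 to 31171 in wild-type kidneys. Unlike Sall4, Lin28a was below every wild-type value in all 3 Ret-deficient kidneys.

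**Figure D3:**
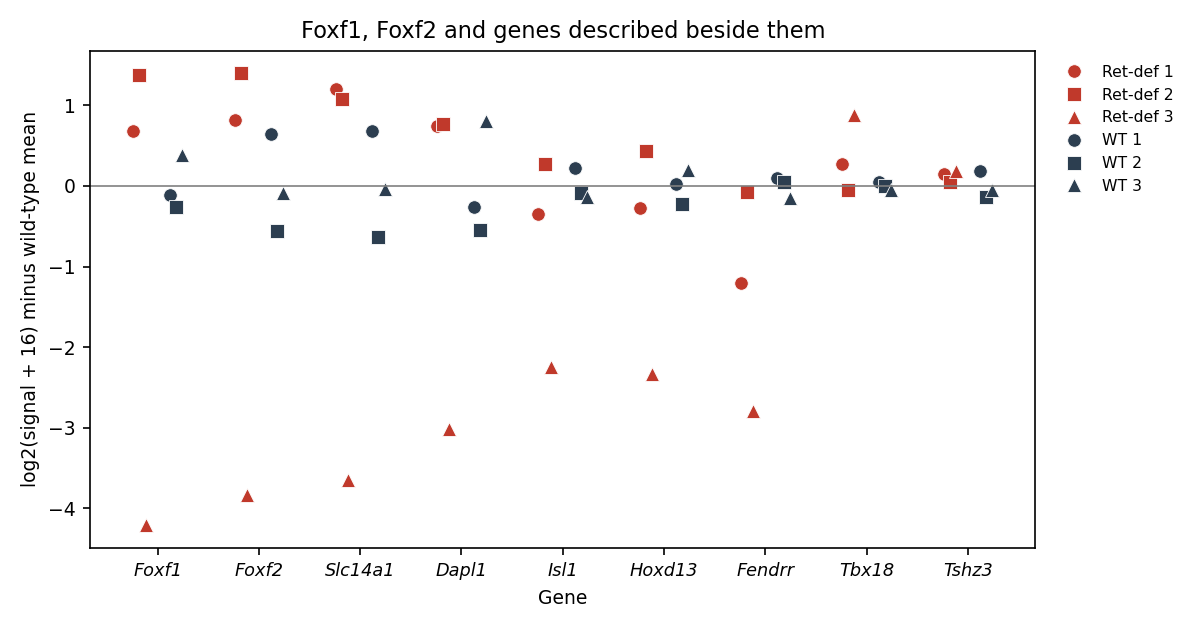
log2(signal + 16) minus the wild-type mean for Foxf1, Foxf2 and the genes described beside them, with 1 point per array and Ret-deficient arrays in red to the left of wild-type arrays in dark blue. Ret-deficient replicate 3 (red triangles) is the low point for the first 7 genes, at -4.21 for Foxf1, -2.25 for Isl1 (probe set 1450723_at), -2.33 for Hoxd13 and -2.79 for Fendrr, but the high point for Tbx18 at 0.88.

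The genes next to Foxf1 and Foxf2 on their chromosomes did not share one pattern. Fendrr, a long noncoding RNA gene that precedes Foxf1 in the GRCm38.p6 gene order, read 327.9, 737.0 and 98.6 in Ret-deficient replicates 1, 2 and 3, against 833.9, 802.7 and 696.8 in the wild-type replicates. It was low in Ret-deficient replicate 3, where its value was not above the background mark of 133.4, and low also in replicate 1, where Foxf1 was above all wild-type kidneys. Foxc2, another forkhead gene beyond Mthfsd on the other side, read 27874, 31655 and 27807 in the Ret-deficient replicates, against 26764 to 31362 in wild-type kidneys. Foxc1, next to Foxf2, read 26071, 23270.1 and 19997 in the Ret-deficient replicates, against 14549, 17227 and 17637 in the wild-type replicates. Foxc1 was thus higher in every Ret-deficient kidney, without passing the fit (log2 difference 0.49, SE 0.18, limma adjusted p = 0.9138).

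Tbx18, which marks the ureteric mesenchyme and its progenitors, had no low sample among the Ret-deficient kidneys. Its brighter probe set, 1429974_at, read 7587, 6059.6 and 11561 in Ret-deficient replicates 1, 2 and 3, against 6496, 6283 and 6082 in the wild-type replicates. Replicate 3, where the Foxf genes were lowest, was the highest of the 6 samples, and replicate 2 was just below the wild-type range. Tbx18 averaged 8403 ± 2839.7 in Ret-deficient and 6287 ± 207.4 in wild-type kidneys (SD, n = 3 each), a log2 difference of 0.37 (SE 0.25, limma adjusted p = 0.9486). The other Tbx18 probe set, 1449871_at, had the same high sample, at 4033, 4520 and 5912 in the Ret-deficient replicates against 3828, 4031 and 4569.7 in the wild-type replicates, with a smaller log2 difference of 0.20 (SE 0.20). The stromal gene Foxd1 was also highest in Ret-deficient replicate 3, at 18372. It read 11833 and 7815 in replicates 1 and 2, against 4633 to 7315 in wild-type kidneys, with no overlap (log2 difference 0.93, SE 0.35, limma adjusted p = 0.9215). Such a lack of overlap was found at 10.7% of all tested probe sets. The 8 tested renal stroma markers, Foxd1 among them, did not peak in replicate 3 as a set. On the log2 scale centred on wild-type kidneys, their median fell from 0.52 (Ret-deficient replicate 1) to 0.26 (replicate 2) and 0.18 (replicate 3). Wild-type kidneys ranged from -0.22 to 0.28.

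Tshz3, which promotes smooth muscle differentiation in the ureter, had the smallest spread over the Ret-deficient kidneys among the brightest probe sets of the tested members. It read 23177, 21670.4 and 23878 in the Ret-deficient replicates, against 23801, 19108 and 20215 in the wild-type replicates, so the values interleave. The highest Ret-deficient value was 1.10 times the lowest, and 93% of all tested probe sets had a wider log2 range in the Ret-deficient group. Its wild-type log2 range, 0.32, was wider than its Ret-deficient range of 0.14. The log2 difference was 0.13 (SE 0.16).

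Its relative Tshz2 had values that also overlapped between the groups. Probe set 1435385_at read 16151, 13341 and 16614 in the Ret-deficient replicates, against 10438, 14668 and 15728 in the wild-type replicates, where replicate 1 was the low sample. Probe set 1428026_at had a log2 difference of -0.01 (SE 0.16), with 2790 to 3407 in Ret-deficient and 2909 to 3355 in wild-type kidneys. The remaining Tshz2 probe set, 1459250_at, was below the brightness filter, at 121.8 to 173.7 in Ret-deficient and 56.2 to 273.0 in wild-type kidneys.

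**Figure D4:**
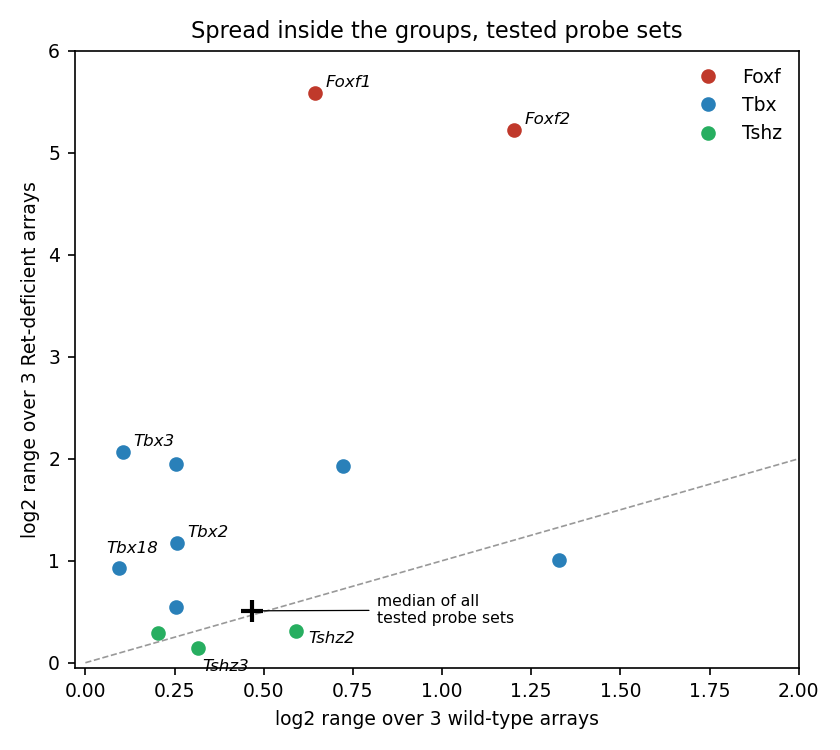
The log2 range over the 3 Ret-deficient arrays (vertical axis) against the log2 range over the 3 wild-type arrays (horizontal axis) for the 12 tested member probe sets, coloured by family, with a dashed line of equal range, a cross at the medians of all tested probe sets (0.51 and 0.47), names beside the brightest probe set of each gene, and axes of different scale. Foxf1 and Foxf2 stand at 5.58 and 5.22, Tbx3 at 2.07, and Tshz3 at 0.14.

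Tbx3, a T-box repressor, was lowest in Ret-deficient replicate 1, not in replicate 3. Its brightest probe set, 1448029_at, read 3125, 13137 and 4822 in Ret-deficient replicates 1, 2 and 3, against 10058, 9389 and 9345 in the wild-type replicates. Replicates 1 and 3 were below all wild-type kidneys and replicate 2 above them, while the wild-type values stayed within 1.08 times of each other. The mean was 7028 ± 5358 in Ret-deficient and 9597 ± 399.6 in wild-type kidneys (SD, n = 3 each), a log2 difference of -0.72 (SE 0.49, limma adjusted p = 0.9474). Without Ret-deficient replicate 2 the difference was -1.30 (limma adjusted p = 0.9622), and with replicate 1 left out in its place it was -0.27.

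The other Tbx3 probe sets showed the low replicate 1 more clearly than the rest of this order. Probe set 1437479_x_at read 2335, 9077 and 4586 in the Ret-deficient replicates, against 8366, 7694 and 7007 in the wild-type replicates, much as the brightest one did. Probe set 1445757_at read 104.9, 330.0 and 443.4 in the Ret-deficient replicates, against 595.5, 389.8 and 354.6 in the wild-type replicates, so here replicate 3 was inside the wild-type range and replicate 1 was not above background. Probe set 1439567_at, the dimmest member that was tested (mean log2 of 8.41 where the filter lay at 8.19), read 220.6, 460.4 and 237.3 in the Ret-deficient replicates, against 210.2 to 551.6 in wild-type kidneys. The remaining one, 1444594_at, was at background on all 6 arrays.

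Tbx2, the T-box gene most closely related to Tbx3, had its low value in the same kidney. It read 1016, 2307 and 1918 in Ret-deficient replicates 1, 2 and 3, against 2223, 2365 and 1978 in the wild-type replicates. Replicate 1 was below all other samples, and the rest lay close together. The log2 difference was -0.40 (SE 0.31, limma adjusted p = 0.9508), and -0.05 without Ret-deficient replicate 1. In replicate 1, 3 of the 12 member probe sets, all of Tbx3, lay at least 2-fold below the lowest wild-type array, against 2.22% of all tested probe sets.

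The same kidney lacked most ureteric epithelium signal, and these values are given beside the Tbx result. Against the wild-type mean, the median of the 14 ureteric epithelium markers was -3.25, -0.32 and -0.71 over the Ret-deficient kidneys (replicates 1, 2 and 3), and -0.14 to 0.05 over the wild-type ones. Tbx3 (1448029_at) was at -1.61, 0.45 and -0.99 in the same samples, and Tbx2 at -1.09, 0.08 and -0.18. Foxf1 was at 0.68, 1.38 and -4.21 in these samples. The part of the epithelium in the Tbx2, Tbx3 and Foxf1 values was not tested.

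The genes nearest to Tbx3 in centred profile were Dkk1, Dsg2, Septin4 and Ttc39a, at root mean square differences of 0.13 to 0.18 log2 units among 11580 genes. Dkk1, a secreted Wnt antagonist, read 1341, 5316 and 2291 in the Ret-deficient replicates, against 3619, 3685 and 3555 in the wild-type replicates. Dsg2, a desmosomal cadherin gene, read 691.1, 2742 and 881.1 in the Ret-deficient replicates, against 2011, 1564 and 1823 in the wild-type replicates. Both had the Tbx3 order of a low replicate 1, a high replicate 2 and a replicate 3 between them. That order follows from picking them by likeness to Tbx3 on these same arrays, so nothing is read from it. Tbx2 was 94th in likeness to Tbx3, and Foxf1 was 11537th.

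**Figure D5:**
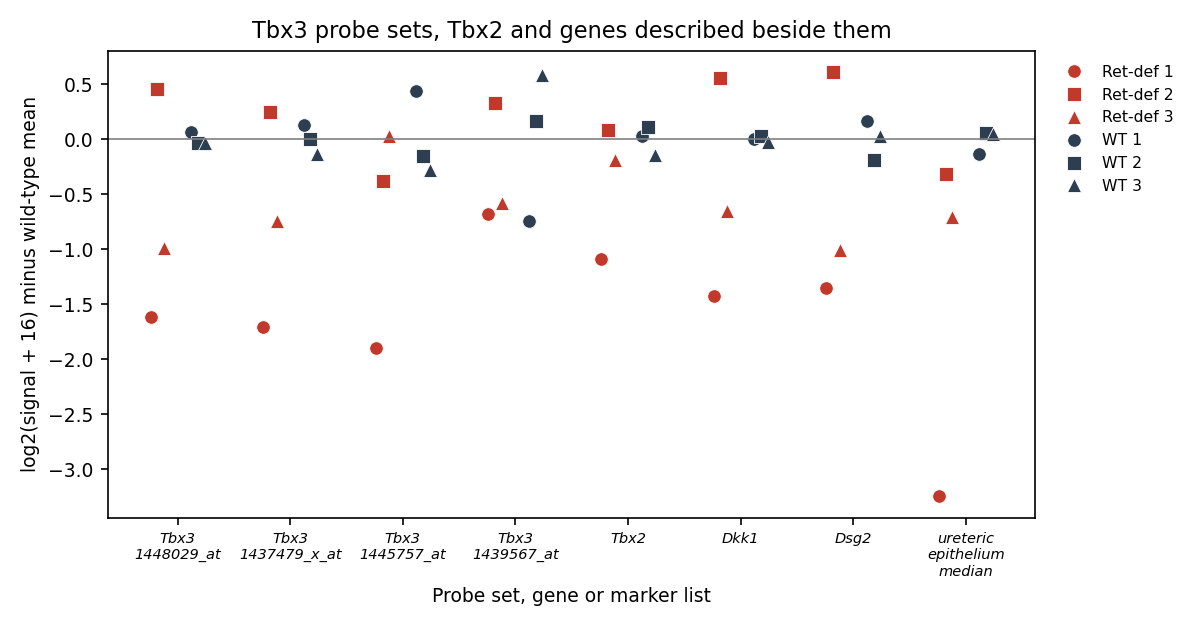
log2(signal + 16) minus the wild-type mean for the 4 tested Tbx3 probe sets, Tbx2, Dkk1, Dsg2 and the median of 14 ureteric epithelium markers, with 1 point per array and Ret-deficient arrays in red to the left of wild-type arrays in dark blue. Ret-deficient replicate 1 (red circles) is the lowest point in every column except Tbx3 1439567_at, where wild-type replicate 1 at -0.74 is below its -0.68, and the epithelial median reaches -3.25.

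The T-box genes next to Tbx2 and Tbx3 in the genome, Tbx4 and Tbx5, gave little or no signal. For Tbx4 the brighter probe set, 1456033_at, read 143.5, 294.6 and 62.5 in Ret-deficient replicates 1, 2 and 3, against 360.7, 387.4 and 162.0 in the wild-type replicates. It was above background on 2 Ret-deficient and 3 wild-type arrays and was the brightest member just outside the filter, with a mean log2 of 7.76. Its lowest value was in Ret-deficient replicate 3, the kidney with the lowest Foxf values. The other Tbx4 probe set and both Tbx5 probe sets (3.3 to 29.9 over all arrays) were not above background on any array. The summed signal of 5 tested limb and body wall markers was 34094, 23634 and 26309 in the Ret-deficient replicates, against 26406 to 35948 in wild-type kidneys. Prrx1 and Twist1 were by far the brightest of them. Hand2 and Msx2, chosen after their values were seen, were lowest in Ret-deficient replicate 3, at 119.1 and 131.9. Neither was above the background mark of 133.4 there. Prrx1, Twist1 and Lmx1b were not lowest in that kidney. The part of such cells in the Tbx4 values was not tested.

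Genes of the hedgehog pathway, which acts upstream of Foxf1 in the ureter, had no member past the threshold. Of 15 genes 11 were tested, 8 with a positive and 3 with a negative log2 difference, of which none passed. Their median was 0.11, where that of all tested probe sets was -0.01. Ptch1, the hedgehog receptor and a target of the pathway, read 27904, 28773 and 19645 in Ret-deficient replicates 1, 2 and 3, against 26333 to 37774 in wild-type kidneys. The transducer gene Smo read 8612 to 10858 in Ret-deficient and 8693 to 8848 in wild-type kidneys. Disp1, which releases hedgehog ligands, and the co-receptor gene Boc had log2 differences of 0.37 (SE 0.22) and 0.35 (SE 0.24).

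Within that list 2 other target genes, chosen after their values were seen, were also lowest in Ret-deficient replicate 3, though by less than Foxf1. Gli1, a transcription factor gene switched on by the pathway, read 2703, 2791 and 1419 in the Ret-deficient replicates, against 1681, 2215 and 2521 in the wild-type replicates. Hhip, a feedback inhibitor gene, read 586.2, 639.7 and 64.9 in the Ret-deficient replicates, against 979.6, 349.9 and 454.4 in the wild-type replicates, the value of 64.9 being at background. Ptch1, Gli1 and Hhip were each lower in that kidney than in the other 5 samples. They were at -0.60, -0.57 and -2.78 against their wild-type means, where Foxf1 was at -4.21. The list as a whole was not low there: the median of its 11 tested genes was at 0.10 against the wild-type mean in that kidney, with Boc at 0.79 and Disp1 at 0.65. Shh and Dhh were below the brightness filter, as was Ihh. The brighter Shh probe set, chosen after its values were seen, read 33.2, 560 and 809.8 in Ret-deficient replicates 1, 2 and 3. It read 32.6, 448 and 91.2 in the wild-type replicates. It was above background only in Ret-deficient replicates 2 and 3 and wild-type replicate 2, and highest in Ret-deficient replicate 3. The dimmer Shh probe set was highest in Ret-deficient replicate 2. The part of Shh in the Foxf1 values was not tested.

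Regulators of the ureteric mesenchyme outside the 9 genes gave no call. The log2 difference was positive for 8 and negative for 6 of the 14 tested, out of 15 on the list, and its median was 0.05. Bmp4, the growth factor gene downstream of Foxf1, read 5113, 7295 and 4925 in the Ret-deficient replicates, against 6519.7, 6417 and 7912 in the wild-type replicates. Its lowest value was in replicate 3, but replicate 1 was nearly as low. In replicate 1 Bmp4 was below all wild-type kidneys, where Foxf1 was above them, so it did not follow Foxf1. The receptor gene Bmpr1a read 13074 to 13888 in Ret-deficient and 10194 to 14056 in wild-type kidneys. Sox9 and Gata6, transcription factor genes of that tissue among others, had log2 differences of 0.42 (SE 0.21) and 0.45 (SE 0.24).

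Smooth muscle genes, which the ureteric mesenchyme turns on later in development, had a median log2 difference of 0.00 over 11 tested of 14, with 6 positive, 5 negative and none past the threshold. Myocd, the co-activator that drives the smooth muscle program, read 2289, 2212 and 2038 in the Ret-deficient replicates, against 1444, 722.8 and 882.6 in the wild-type replicates. It was higher in 3 of 3 Ret-deficient kidneys, with a log2 difference of 1.15 (SE 0.27, limma adjusted p = 0.8668). The myosin kinase gene Mylk also did not overlap, which makes 2 of 11 genes, against 10.7% of all tested probe sets. Its values were 11505 to 15147 in Ret-deficient and 9392 to 11455 in wild-type kidneys. Srf, the partner of Myocd, read 9518 to 13422 in Ret-deficient and 9022 to 10951 in wild-type kidneys. Acta2, the smooth muscle actin gene, chosen after its values were seen, varied widely in both groups, at 3553 to 24720 in Ret-deficient and 1815 to 28187 in wild-type kidneys.

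Cell cycle inhibitor genes, which T-box repressors can hold down, did not pass either: 3 of 6 were tested, 2 positive and 1 negative, with a median of 0.30. Cdkn1a, encoding p21, read 1388, 5135 and 2239 in the Ret-deficient replicates, against 2431 to 3431 in wild-type kidneys. It was lowest in replicate 1 and highest in replicate 2, as Tbx3 was. Cdkn1b and Cdkn1c, which encode p27 and p57, had log2 differences of 0.37 (SE 0.20) and 0.30 (SE 0.26).

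Of the 12 other T-box genes on the list, 10 had a probe set of 1 symbol, and 2 of these 10 were bright enough to be tested. Tbx1 read 3619, 1074 and 1099 in the Ret-deficient replicates, against 1427, 1321 and 1400 in the wild-type replicates, so it was highest in the kidney where Tbx2 and Tbx3 were lowest. Mga, a broadly expressed gene that carries a T-box, read 11589.9 to 15882 in Ret-deficient and 13919 to 18223 in wild-type kidneys. Of the other forkhead and teashirt genes 15 of 20 were tested, 8 positive and 7 negative, with a median of 0.04 and none past the threshold.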

How the data were processed

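The authors deposited one MAS5 signal intensity per probe set and array, MAS5 being the tool in the submitters' processing notes; neither a version nor a scaling target is given in the sources used here. Per the labels' design text, amplified RNA was hybridized. All arrays share a mean signal of 2500 once 2 percent is trimmed from either end. Signals were analysed as log2(signal + 16), a scale that understates changes of dim probe sets. No further normalization was applied because array medians lay within 0.42 log2 units, under a limit of 0.5. After removal of 64 control probe sets, 22519 of 45037 were tested, those with a mean log2 value at or above the median. Symbols came from the platform annotation, updated by gene ID: 34958 probe sets had 1 symbol, 932 several and 9211 none. A gene was represented by its tested probe set with the highest mean log2 value, except in the search for like profiles, which took the probe set nearest to the member.

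Groups followed the titles, which call the replicates biological without naming animals, so p-values measure the spread between these samples. Ret-deficient was compared with wild-type in R 4.3.3 with limma 3.58.1 (lmFit, eBayes, no covariates) and Benjamini-Hochberg adjustment over all tested probe sets, and the fit was tested on simulated data. With 3 arrays a group, the smallest p of an exact permutation test is 0.1. The number of arrays limits precision.

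The members and lists were chosen with earlier results of these data known. The rule for named genes took all members, Ret, from each gene or marker list the 2 tested genes written first and the 2 with the smallest p, and the 4 genes nearest in centred profile to Foxf1, Foxf2 and Tbx3. From the marker lists, only genes that touch a member's values are printed. Genes flanking the members, and those said to be, were chosen after their values were seen. Alternatives were pseudocounts of 1 and 64, no brightness filter, the top 30 percent by brightness, quantile normalization, centring on the array median, eBayes with an intensity trend, a replicate block, leaving out each array, and averaging the tested probe sets of each gene.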

Additional observations from a re-analysis of the deposited data

How the results depend on the processing

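No member passed an adjusted p of 0.05 under any of the alternatives run. Over the whole array the count of 0 (1209 at an unadjusted p under 0.05) became 1, Ret, with median centring, with an intensity trend and without Ret-deficient replicate 1, so it ranged from 0 to 1 with each array left out. The 1209 became 2265 without a brightness filter, 723 among the top 30 percent and 2140 without Ret-deficient replicate 3. With the replicate number as a block it was 0, with 0 members past the threshold, and the block changed no call. The labels do not say that equal numbers mark shared litters or days, and deviations of same-numbered arrays from their group means correlated at 0.03, -0.04 and -0.12. The 0 member probe sets whose groups do not overlap became 2 (Tbx18 and Tshz3) with median centring, where 8.1% of all tested did not. Median centring also moved the median of all differences to 0.10. With each array left out the count of such members ranged from 0 to 5. The 5 came without Ret-deficient replicate 2 (2 of Tbx3, and 1 each of Tbx2, Tbx18 and Tshz2, where 18.6% of all tested probe sets did not overlap). Without Ret-deficient replicate 3 there were 3, of Foxf1, Foxf2 and Tbx3, where 28.6% of all did not overlap. Without wild-type replicate 1 there was 1, where 21.5% of all did not overlap. Without wild-type replicate 3 there was also 1, where 19.9% did not. The 7 probe sets with a Ret-deficient log2 range over 1 became 4 among the top 30 percent by brightness, where fewer probe sets were tested, and ranged from 3 to 7, the 3 without Ret-deficient replicate 1 or 2. With each array left out the log2 difference ranged from -1.76 to 1.03 for Foxf1, from -1.50 to 1.11 for Foxf2, from -1.30 to -0.27 for Tbx3 and from -0.64 to -0.05 for Tbx2. It ranged from 0.11 to 0.57 for Tbx18, from 0.01 to 0.31 for Tshz2 and from 0.06 to 0.22 for Tshz3. The sign of Foxf1 and of Foxf2 turned in 1 setting each, without Ret-deficient replicate 3. Where the signal is near background, as for Foxf2 in that kidney, the size of a difference depends on the pseudocount.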
